A study of Mus musculus with 12 samples.

Results

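Gdpd5 encodes GDE2, and its transcripts were followed here in cortices of WT mice and of Gde2KO mice, in which this gene is disrupted. All transcripts that the deposited identifier table lists for Gdpd5 were taken, 8 of 118489 transcripts in the table, and the gene is 1 of 36047 listed genes. The study compared 4 groups, namely 4-month WT, 4-month Gde2KO, 19-month WT and 19-month Gde2KO, with 3 libraries each from bulk cortical tissue, and it used male and female mice. Gde2KO mice are a constitutive Gde2-/- line, so that all cell types of the cortex carry the allele. The sources used here do not give which part of Gdpd5 the allele lacks, and transcripts were scored against the annotation of the intact gene. A level in Gde2KO therefore says that RNA matching an annotated transcript was counted, and it carries no information on GDE2 protein.

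GDE2 is a membrane enzyme with several transmembrane segments and an external glycerophosphodiester phosphodiesterase domain. As an ectoenzyme it hydrolyses the lipid anchor of certain surface proteins, which are then shed. In the nervous system it is known for roles in the formation of neurons, in oligodendrocyte maturation and in the survival of adult neurons. A disrupted gene can still be transcribed, and the RNA that remains depends on the allele, on splicing around the altered part and on the stability of the product.

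Gdpd5 (ENSMUSG00000035314.10) lies on the forward strand of chromosome 7 of GRCm38 from 99381414 to 99461877. In GENCODE vM21, 0 annotated genes overlap it, and the nearest, Klhl35, is 4127 bp away. Gdpd5-201 (ENSMUST00000037528.9) is the full-length coding transcript, with 18 exons, 4611 nt and 1821 coding nt, which is 607 codons. Gdpd5-208 (ENSMUST00000213887.1) is the other complete coding transcript, with 16 exons, 2711 nt and 612 codons. It starts at the start codon, without the leader of 1023 nt that Gdpd5-201 carries, ends 892 nt earlier, and contains an additional exon of 15 nt. Gdpd5-207 (ENSMUST00000208947.1) is a retained-intron RNA of 1 exon and 1865 nt, which reads from an intron through exons 8 and 9 of Gdpd5-201 into the next intron. Gdpd5-205 (ENSMUST00000208061.1) and Gdpd5-202 (ENSMUST00000207238.1) are also annotated as retained introns. Gdpd5-203, Gdpd5-204 and Gdpd5-206 are annotated as coding with an incomplete 3′ end, are 369, 412 and 446 nt long, and cover the 5′ part of the gene. The start codon at 99424113 is shared by 5 of the 8 transcripts.

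The following sequences show what separates the transcripts the results turn on. They were read from the GENCODE vM21 transcripts on GRCm38, forward strand, 5′ to 3′. The first pair spans chr7:99456505-99458803 after splicing, from exon 16 to exon 17 of Gdpd5-201, and the capitals in Gdpd5-208 mark the additional exon at 99456997 to 99457011. This exon lengthens the reading frame by 5 codons without shifting it, and it is the only coding difference between both complete transcripts. It is inserted inside a codon, after 2 of its bases, so the codon it splits is changed as well. The line for Gdpd5-207 covers chr7:99448537-99448596, where exon 9 ends at 99448566, and the capitals mark the first bases of the intron that this RNA keeps. The line for Gdpd5-205 covers chr7:99448912-99448971, and the capitals mark the last bases of the same intron before exon 10, which starts at 99448942.
Gdpd5-208: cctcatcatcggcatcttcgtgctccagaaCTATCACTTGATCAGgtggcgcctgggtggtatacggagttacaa
Gdpd5-201: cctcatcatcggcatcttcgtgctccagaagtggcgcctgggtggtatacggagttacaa
Gdpd5-207: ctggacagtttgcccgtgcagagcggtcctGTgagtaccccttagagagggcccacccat
Gdpd5-205: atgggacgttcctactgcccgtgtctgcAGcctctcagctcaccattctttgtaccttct

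How well reads can be told apart differs between the transcripts. Of the windows of 31 bases in Gdpd5-201, 37.3% occur in no other annotated transcript, mainly in the leader and at the 3′ end. In Gdpd5-207 this share is 80.5%, although 43 of its windows also occur in another gene. In Gdpd5-208 it is 1.68%, that is 45 windows around the additional exon. Reads that only Gdpd5-208 can hold thus come from few bases, whereas reads particular to Gdpd5-201 can fall on its leader and 3′ end. Gdpd5-202 has 0 such windows.

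The libraries differed in ways that touch these values. They held 46434259 to 59728495 estimated reads at 4 months and 3707928 to 44604732 at 19 months. The 19-month libraries, whose columns carry an identifier but no replicate number, are called A, B and C here, and WT A (6734475 reads) and Gde2KO A (3707928 reads) were shallow. In Gde2KO A 1 read equals 8.29 normalized counts and in WT A 4.66, while in the other 10 libraries it equals 0.597 to 0.847. Reads assigned to Gdpd5 ranged from 53.1 in 19-month Gde2KO A to 2009 in 4-month WT 3. All 7 markers of cortical neurons were above 0 in every library. At 4 months WT 1 and WT 2 stood apart from the other 4 libraries, with marker scores for hippocampus of 1.01 and 0.99 against −0.64 to −0.19, and for striatum of −2.49 and −2.43 against 0.29 to 2.02 (mean log2 value, centered on the libraries of that age). Their scores for cortical neurons were −0.68 and −0.49 against 0.16 to 0.40. Endothelial scores at 4 months were −0.30 to 0.05 in WT and 0.08 to 0.19 in Gde2KO, without overlap. The scores of every other marker list overlapped between the genotypes at that age. All 6 hippocampal and all 6 striatal markers were above 0 in every library. The summed TPM of the striatal markers was 54.1 and 55.9 in these WT libraries, 617 in WT 3 and 254 to 897 in Gde2KO. At 19 months 3 marker scores did not overlap between the genotypes. They were 0.03 to 0.05 in WT and −0.10 to −0.01 in Gde2KO for cortical neurons, −0.26 to −0.17 and 0.12 to 0.30 for hippocampus, and −0.16 to −0.07 and −0.03 to 0.34 for astrocytes. The scores of deep-layer neurons, oligodendrocytes, microglia, endothelial cells, striatum, choroid plexus and blood overlapped at 19 months. All 5 astrocyte and all 5 endothelial markers were above 0 in every library. The part of these markers in the results at either age was not tested. In bulk tissue, fewer cells that express a gene and less RNA per cell cannot be told apart.

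Summed over its transcripts, Gdpd5 was at about the middle-to-upper range of cortical genes and was reduced, not absent, in Gde2KO. At 4 months the normalized counts were 684, 702 and 1199 in WT and 417, 585 and 403 in Gde2KO. At 19 months they were 1065, 1129 and 952 in WT and 441, 456 and 560 in Gde2KO. Every Gde2KO library was below every WT library at each age, although at 4 months WT 1 exceeded Gde2KO 2 by less than the spread within either group, and WT 3 was far above the other WT libraries. Of all genes tested, 4.26% showed this separation downward at 4 months, 8.32% at 19 months and 0.23% at both.

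**Figure D1:**
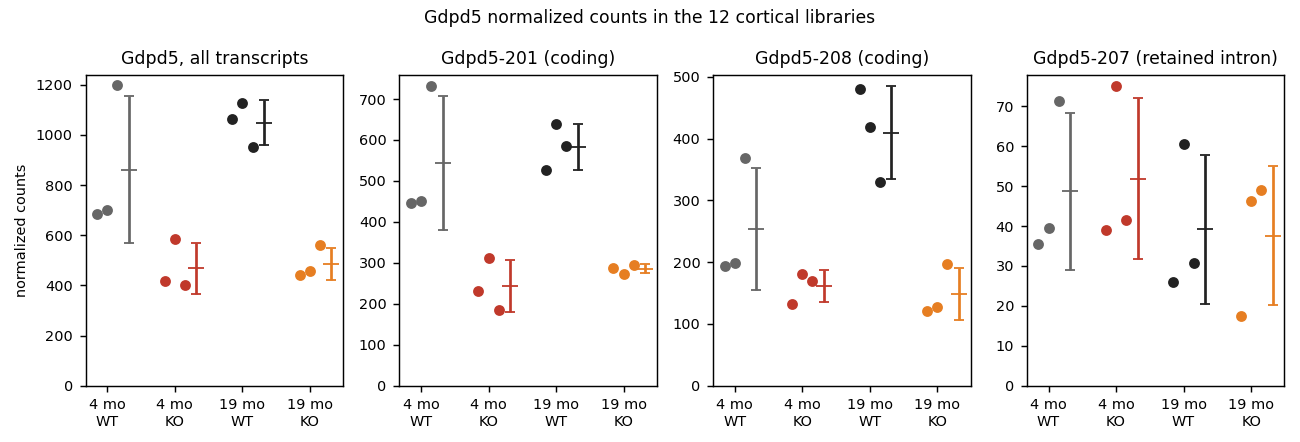
Normalized counts of Gdpd5 and of its 3 most abundant transcripts in the 12 libraries (y axis, normalized counts; x axis, the 4 groups by age in months, with KO for Gde2KO). Points are libraries, and the bars beside them are the mean ± SD of 3 libraries. The summed gene, Gdpd5-201 and Gdpd5-208 are lower in every Gde2KO library than in every WT library of the same age, whereas the values of Gdpd5-207 overlap at both ages.

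The RNA left in Gde2KO was 54.4% ± 11.8 (SD, n = 3) of the WT mean at 4 months and 46.3% ± 6.20 (SD, n = 3) at 19 months, and no single library fell under 42.0%. At 19 months the log2 fold change was −1.11 (SE 0.12, 95% interval −1.38 to −0.85) and passed the test (limma adjusted p = 0.0111). Only 0.0646% of 18583 genes were called lower at 19 months. The genotypes were also separated at this age by the marker scores of cortical neurons, hippocampus and astrocytes, whose part was not tested. At 4 months it was −0.85 (SE 0.25, 95% interval −1.43 to −0.26) and did not pass (limma adjusted p = 0.463), where 0.021% of 19035 genes were called lower and the median over all genes was 0.11. Over both ages it was −0.98 (SE 0.15, limma adjusted p = 0.0419), with 0.0427% of 18731 genes called lower. The genotype effect did not differ detectably between the ages, with a log2 difference of −0.27 (95% interval −0.92 to 0.39, limma adjusted p = 0.669, 0.048% of genes called). This difference was −0.53 without 4-month WT 3 (limma unadjusted p = 0.0404, adjusted p = 0.219) and −0.09 without 4-month Gde2KO 2 (limma adjusted p = 0.864). The exact permutation test of the counts over both ages gave p = 0.005, the smallest p that 400 arrangements allow, and p = 0.1 at each age, the smallest that 20 arrangements allow (two-sided).

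The call at 19 months was lost without WT A (limma adjusted p = 0.118) and kept without both shallow libraries (limma adjusted p = 0.0812). The call over both ages was lost when any of 6 libraries was left out, namely Gde2KO 1, Gde2KO 3, WT A, WT B, Gde2KO A or Gde2KO B, with limma adjusted p between 0.112 and 0.154. Without WT 1 and WT 2 the 4-month fold change was −1.38 on the log2 scale (limma adjusted p = 0.793, with WT 3 assumed to vary like the others). Per length, the mean summed TPM was 16.5 ± 6.88 in 4-month WT, 11.0 ± 3.33 in 4-month Gde2KO, 19.0 ± 2.13 in 19-month WT and 10.6 ± 1.73 in 19-month Gde2KO (SD, n = 3). Among genes above 0, this placed Gdpd5 at percentiles of 68.1 and 70.1 in WT and of 62.5 and 60.9 in Gde2KO. On the TPM scale 66.9% of the WT mean was left at 4 months and 55.8% at 19 months, more than in counts, because short transcripts weigh more per read in TPM.

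Both complete coding transcripts accounted for most of the gene and for nearly all of the loss. Together Gdpd5-201 and Gdpd5-208 held 92.7% ± 0.988 of the Gdpd5 counts in 4-month WT, 86.4% ± 2.03 in 4-month Gde2KO, 94.8% ± 1.16 in 19-month WT and 89.4% ± 2.78 in 19-month Gde2KO (SD, n = 3). Of the difference in mean counts between genotypes, Gdpd5-201 made up 76.4% at 4 months and 53.0% at 19 months, and Gdpd5-208 made up 23.6% and 46.4%.

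Gdpd5-201 was reduced to a similar degree at both ages. Its normalized counts at 4 months were 447, 451 and 732 in WT and 232, 311 and 186 in Gde2KO. At 19 months they were 527, 640 and 584 in WT and 287, 274 and 295 in Gde2KO. The groups did not overlap at either age, and the older Gde2KO libraries lay close together. What was left was 44.7% ± 11.6 of the WT mean at 4 months and 48.9% ± 1.85 at 19 months (SD, n = 3). Over both ages Gdpd5-201 passed the test, with a log2 fold change of −1.09 (SE 0.16, limma adjusted p = 0.0989), and it was the only one of 4 tested Gdpd5 transcripts to do so, where 0.018% of 60996 transcripts were called lower. This adjusted p lies just inside the threshold of 0.1, and the call was lost when any of 10 libraries was left out, all but 4-month WT 3 and 4-month Gde2KO 2 (limma adjusted p 0.137 to 0.283). Within an age the log2 fold changes were −1.15 (SE 0.28, limma adjusted p = 0.527) and −1.03 (SE 0.12, limma adjusted p = 0.296).

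Gdpd5-208, which carries the additional 15-nt exon, had a smaller fold change at 4 months than at 19 months, but the ages did not differ beyond the error. Its normalized counts at 4 months were 194, 199 and 368 in WT and 132, 182 and 169 in Gde2KO. At 19 months they were 480, 419 and 330 in WT and 121, 127 and 197 in Gde2KO. The groups did not overlap, but at 4 months WT 1 and WT 2 lay close above Gde2KO 2, and at 19 months the gap was wide. What was left was 63.3% ± 10.2 of the WT mean at 4 months and 36.2% ± 10.2 at 19 months (SD, n = 3). The log2 fold changes were −0.60 (SE 0.30, limma adjusted p = 0.534) and −1.48 (SE 0.25, limma adjusted p = 0.788), and neither passed. Without WT 3 the 4-month value was −0.30 (limma adjusted p = 0.631), and without WT 1 and WT 2 it was −1.21 (limma adjusted p = 0.996). The difference between the ages was −0.88 (SE 0.41, 95% interval −1.78 to 0.03) and did not pass (limma adjusted p = 0.577), nor did that of Gdpd5-201, 0.12 (SE 0.32, limma adjusted p = 0.901). In 19-month Gde2KO A the value rests on 14.6 estimated reads.

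Across all transcripts tested, 0.0507% of 63134 were called lower at 4 months and 0.00493% of 60823 at 19 months, and 0 of the 4 tested Gdpd5 transcripts were among them at either age. By unadjusted limma values, 1 of these 4 was under 0.05 at 4 months (Gdpd5-201, at 0.00413) and 2 were at 19 months (Gdpd5-201 at 9.88e-05 and Gdpd5-208 at 0.000778). Both complete coding transcripts were lower in every Gde2KO library at each age, as were 8.65% of all tested transcripts at 4 months, 6.92% at 19 months and 0.418% at both. The exact permutation test over both ages gave p = 0.005 for each of them.

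**Figure D2:**
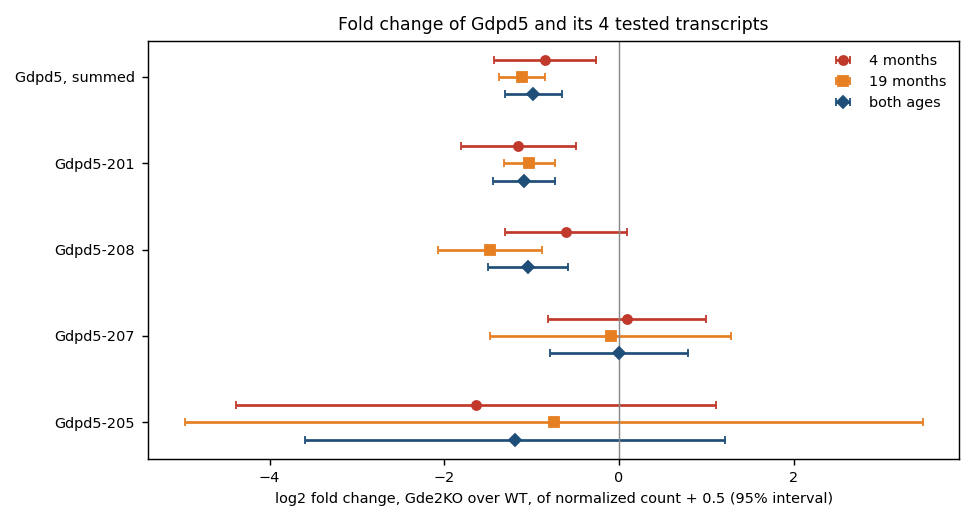
Log2 fold change (Gde2KO over WT) of normalized count + 0.5 for the summed gene and the 4 transcripts that passed the filter on low values, at 4 months, at 19 months and over both ages (x axis, log2 fold change; bars, 95% intervals from limma). Gdpd5-201 lies at −1.15, −1.03 and −1.09, Gdpd5-208 at −0.60, −1.48 and −1.04, and Gdpd5-207 at 0.09, −0.09 and −0.00, and the intervals of Gdpd5-205 span several log2 units.

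The retained-intron RNA Gdpd5-207 had similar means in both genotypes, with a wide error. Its normalized counts at 4 months were 35.4, 39.4 and 71.4 in WT and 38.9, 75.1 and 41.5 in Gde2KO. At 19 months they were 26.1, 60.6 and 30.8 in WT and 17.6, 46.2 and 49.0 in Gde2KO. The groups overlapped at both ages, and the lowest value, in Gde2KO A, rests on 2.12 estimated reads. The mean in Gde2KO was 106% ± 41.4 of the WT mean at 4 months and 96.0% ± 44.4 at 19 months (SD, n = 3). Over both ages the log2 fold change was −0.00 (SE 0.36, 95% interval −0.80 to 0.79, limma adjusted p = 1). This interval does not contain the estimates of −1.09 for Gdpd5-201 and −1.04 for Gdpd5-208, but it overlaps their intervals (−1.44 to −0.74 and −1.49 to −0.59). Within an age the intervals were wider, and that at 4 months (−0.81 to 0.998) contains the −0.60 of Gdpd5-208, whereas that at 19 months (−1.47 to 1.28) contains the −1.03 of Gdpd5-201. Relative to the other Gdpd5 transcripts its log2 fold change was higher by 1.22 at 4 months, 0.99 at 19 months and 1.11 over both ages, which did not pass (limma diffSplice adjusted p = 0.780, 1 and 1).

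The other transcripts were near the limit of detection. Gdpd5-205 ranged from 0 to 32.4 normalized counts and was above 0 in 10 of 12 libraries, with its highest value in the shallow 19-month WT A. Its log2 fold change over both ages was −1.19 (SE 1.09, limma adjusted p = 0.787). The 3 transcripts of the 5′ part, Gdpd5-203, Gdpd5-204 and Gdpd5-206, were above 0 in 9, 9 and 4 of 12 libraries and never exceeded 8.29 normalized counts. That highest value is a single read of Gdpd5-206 in 19-month Gde2KO A. Gdpd5-202 was above 0 in 5 libraries, with at most 1.38 normalized counts. These 4 transcripts did not pass the filter on low values and were left out of the limma fits of level. The exact permutation test of their counts over both ages gave p = 0.155 for Gdpd5-203, 0.505 for Gdpd5-204, 0.65 for Gdpd5-206 and 0.61 for Gdpd5-202.

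The remaining RNA was also laid out by the exonic stretches of the annotated transcripts. The summed TPM of all transcripts that contain a stretch was compared between genotypes, which follows from the assignment of reads to whole annotated transcripts and is not a count of reads over each exon. Over the first exon, which only Gdpd5-201 contains, the Gde2KO mean was 0.43 of the WT mean at 4 months and 0.49 at 19 months. Over exons 11 to 14, which 3 transcripts share, it was 0.51 and 0.43. Over the additional exon of Gdpd5-208 it was 0.61 and 0.36. Over the intronic stretch before exon 8, found only in Gdpd5-207, it was 1.04 and 0.96. Over the 100 nt of intron found only in Gdpd5-205 it was 0.38 and 0.52, from group means under 1 TPM. Over the stretch found only in Gdpd5-203 it was 2.5 and 2.7, and over those found only in Gdpd5-204 it was 0.81 and 0.73. Over the stretch found only in Gdpd5-206 it was 1.04 at 4 months, and the 19-month WT mean was 0. The group means behind these short coding transcripts were at most 1.26 TPM. The lowest ratio over any stretch of Gdpd5-201 was 0.42. Because reads are credited to whole transcripts, a stretch found in 1 transcript only repeats the ratio of that transcript. These values thus cannot show where along the gene the remaining RNA lies, nor the loss of a single exon.

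**Figure D3:**
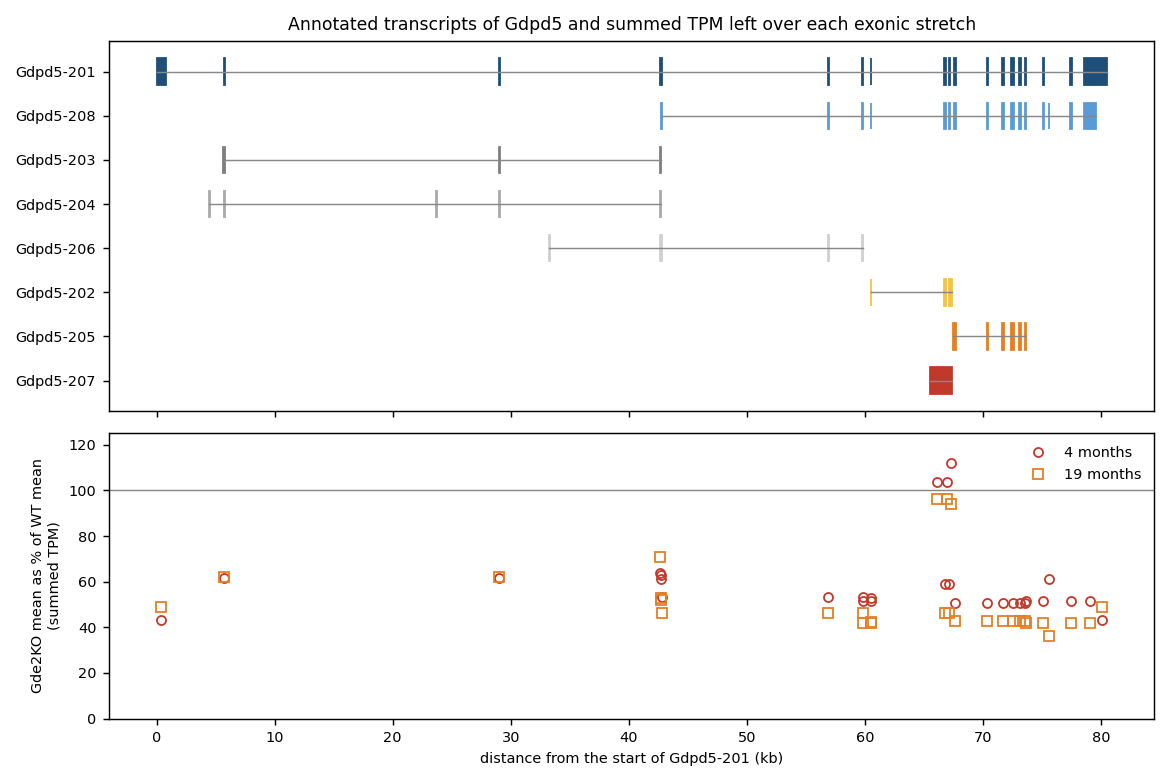
Upper panel, exons (boxes) and introns (lines) of the 8 Gdpd5 transcripts by distance from the start of Gdpd5-201 (x axis, kb). Lower panel, mean summed TPM in Gde2KO as a percent of the WT mean for each stretch contained in Gdpd5-201, Gdpd5-207 or Gdpd5-208 (circles, 4 months; squares, 19 months). Stretches contained in Gdpd5-201 or Gdpd5-208 lie between 36.3 and 70.8%. The stretches found only in Gdpd5-207, or in it and Gdpd5-202, lie between 94.0 and 112%. The intronic stretch of Gdpd5-205 is not drawn below.

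How the gene divides among its transcripts was then compared as the share of the gene's TPM. The share of Gdpd5-201 was 43.6, 42.4 and 36.2% in 4-month WT and 28.6, 25.0 and 23.4% in 4-month Gde2KO. At 19 months it was 31.5, 36.6 and 41.5% in WT and 31.4, 37.0 and 28.6% in Gde2KO. The genotypes were separated at 4 months and overlapped at 19 months. The exact permutation p was 0.1 here, for Gdpd5-208 at 19 months and for Gdpd5-207 at 4 months, the smallest possible within an age. How many transcripts of all genes separate in share in this way was not counted. Over both ages the mean share in Gde2KO differed from that in WT by −9.62 percentage points (two-sided exact permutation test, p = 0.02, smallest p 0.005), and it stayed lower with any library left out (p at most 0.035).

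The share of Gdpd5-208 showed the reverse order of ages. It was 33.7, 33.3 and 32.4% in 4-month WT and 29.0, 26.1 and 38.0% in 4-month Gde2KO, which overlap. At 19 months it was 51.2, 42.8 and 41.9% in WT and 23.8, 30.7 and 34.1% in Gde2KO, which do not. Over both ages the mean share in Gde2KO differed from that in WT by −8.96 points (exact permutation p = 0.03). This did not hold without 4-month Gde2KO 2, WT A, Gde2KO A or Gde2KO B (exact permutation p = 0.055, 0.06, 0.06 and 0.05), or without both shallow libraries (p = 0.1).

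The share of Gdpd5-207 was higher in Gde2KO. It was 9.43, 10.2 and 9.61% in 4-month WT and 13.1, 16.6 and 14.4% in 4-month Gde2KO, without overlap. At 19 months it was 4.29, 9.53 and 6.03% in WT and 5.32, 17.1 and 13.1% in Gde2KO, with Gde2KO A inside the WT range. Over both ages the share was higher by 5.10 points (exact permutation p = 0.035). Leaving out WT A, WT C, Gde2KO B or Gde2KO C gave exact permutation p = 0.085, 0.08, 0.065 and 0.06. As a share of normalized counts the gain was 4.59 points (exact permutation p = 0.01). In TPM the short transcript Gdpd5-203 gained more, 8.43 points over both ages (exact permutation p = 0.06), and never exceeded 6.51 normalized counts. The level of Gdpd5-207 itself had similar means in both genotypes, with 106% and 96.0% of the WT mean left at 4 and 19 months. Since the shares of a gene add up to its whole, a share can rise when only other transcripts fall.

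The scale decided part of these shares. As shares of normalized counts, Gdpd5-201 differed by −11.9 points at 4 months but by 3.44 points at 19 months, and Gdpd5-208 by 5.71 and −8.76 points. Over both ages neither differed beyond the permutations (exact p = 0.28 and 0.66). The scales part because 1 TPM equals 84.3 normalized counts for Gdpd5-201 and 3.01 to 4.02 for the 3 short transcripts of the 5′ part, which together held 0.835% of the counts but 12.3% of the TPM in 4-month WT, and 1.91% of the counts but 24.3% of the TPM in 4-month Gde2KO. At 19 months these short transcripts held 5.94% ± 5.22 of the TPM in WT and 20.7% ± 16.9 in Gde2KO (SD, n = 3). In 19-month Gde2KO A, 1 read of Gdpd5-206 made up 19.1% of the gene's TPM. Of the 8 share tests over both ages, 1 for each transcript, 3 had an exact permutation p under 0.05 in TPM and 1 in normalized counts, without adjustment for their number. These tests are not independent, because the shares of a gene add up to its whole. The other 16 tests, within an age, cannot go below 0.1.

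**Figure D4:**
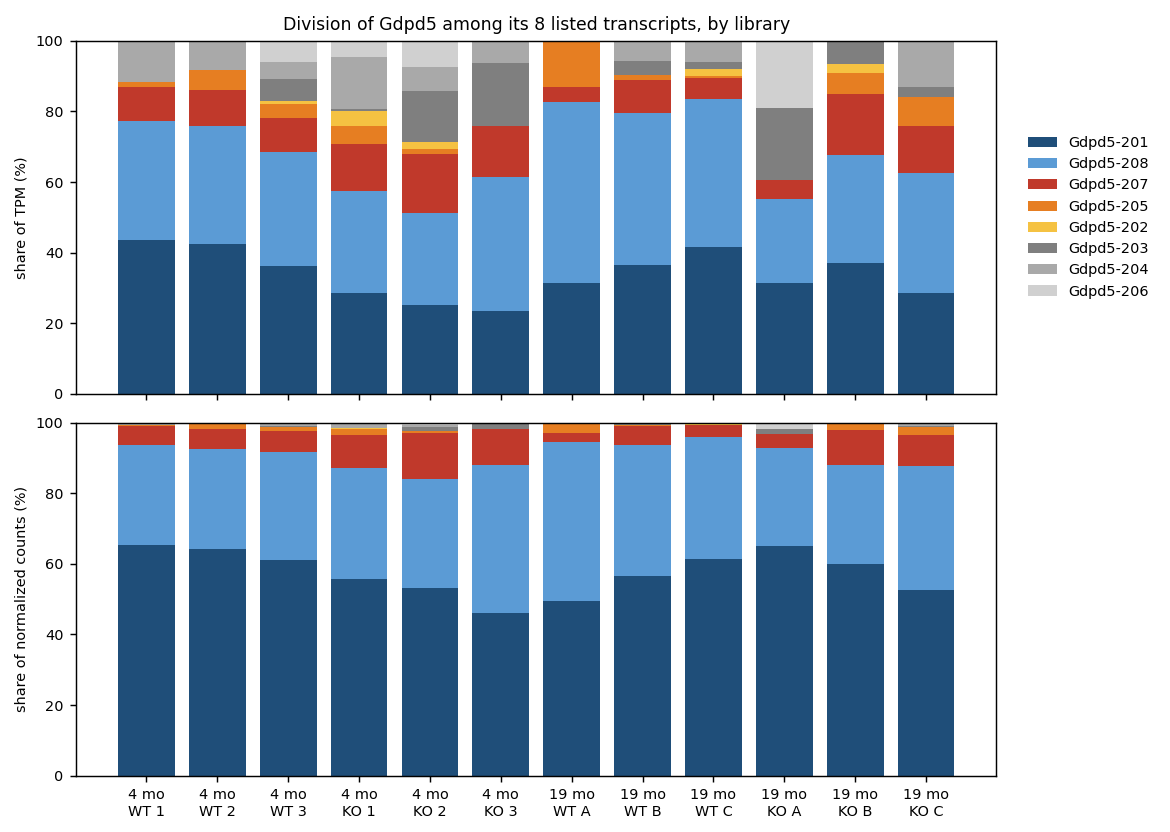
Division of Gdpd5 among its 8 listed transcripts in each library (x axis, libraries by age in months and genotype, with KO for Gde2KO), as percent of the gene's TPM (upper panel) and of its normalized counts (lower panel). The short transcripts in gray take up to 39.4% of the TPM of a library but few of its counts, and the red segment of Gdpd5-207 is larger in all 3 Gde2KO libraries than in WT at 4 months.

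A further test, run on every gene with several measured transcripts, asked whether these moved by unequal amounts. For Gdpd5, with 4 transcripts of sufficient level, it did not pass at 4 months (limma diffSplice F test, adjusted p = 0.749, largest share change 15.1 points), at 19 months (adjusted p = 1, 15.8 points) or over both ages (adjusted p = 1, 9.62 points). Of all genes tested, 1.12% were called at 4 months, 0.171% at 19 months and 0.0894% over both ages. Without both shallow libraries the 19-month test passed (adjusted p = 0.0623, with a change of −10.0 points for Gdpd5-208).

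Genes related to GDE2 showed no called change. Of the other genes of the family (Gde1, Gdpd1, Gdpd2, Gdpd3 and Gdpd4), 4 of 5 passed the filter and 0 were called in either direction at 4 months, at 19 months or over both ages. The background of genes called higher was 0.105% at 4 months, 0.0323% at 19 months and 0.0427% over both ages. Gde1, which acts on other glycerophosphodiesters, was the most abundant per length, with 204 ± 22.9 TPM in 4-month WT and 275 ± 77.4 in 4-month Gde2KO, and 181 ± 4.96 and 182 ± 5.49 at 19 months (SD, n = 3). Of 9 genes that act with GDE2 (Prdx1, Reck, Gpc2, Gpc4, Gpc6, Adam10, App, Notch1 and Dll1), all were tested and 0 were called. Prdx1 is a peroxiredoxin, Reck and the glypicans are anchored proteins of the cell surface, and Adam10 is a surface protease. The medians of the family were 0.09, −0.16 and −0.09 on the log2 scale at 4 months, at 19 months and over both ages, beside 0.11, −0.02 and 0.05 over all genes. Those of the 9 genes were −0.06, 0.08 and 0.03. The furthest from 0 was Gpc4 at 4 months, with −0.64 (SE 0.48, limma adjusted p = 0.548). With 0 calls by limma, the smallest adjusted p over both lists was 0.476, for Gde1 at 4 months.

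The genes whose pattern over the 12 libraries was most like that of Gdpd5 were sought by Pearson's r of log2 values centered within each age, over 18039 other genes. Rnf169, which encodes a ubiquitin ligase, came first with r = 0.95, followed by Olfr543 with 0.91, Slc38a6 with 0.89, Gm2163 with 0.88 and Ddhd1 with 0.87. These values share the libraries and their scaling, and each includes the difference between genotypes. Rnf169 lies on chromosome 7 from 99920254 to 99980448, 458 kb from Gdpd5, and Olfr543 lies on the same chromosome, 3015 kb from Gdpd5. Olfr543 was near the limit of detection, with a mean of 5.80 normalized counts over the 12 libraries and 0 in 19-month Gde2KO A. The normalized counts of Rnf169 were 1144, 1248 and 1882 in 4-month WT and 1075, 982 and 885 in 4-month Gde2KO. At 19 months they were 2371, 2296 and 2184 in WT and 1310, 1324 and 1318 in Gde2KO. As for Gdpd5, WT 3 was the highest 4-month library and every Gde2KO library was below every WT library at each age. Of all genes tested, 0.23% showed this separation at both ages. Because Rnf169 was chosen by its likeness to Gdpd5 in these same libraries, the shared pattern is no separate result.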

How the data were processed

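Cortical RNA was enriched with oligo(dT) beads, made into NEBNext libraries and sequenced in pairs, with 12 libraries in 4 groups. The authors quantified transcripts on GRCm38 with kallisto and sleuth, whose versions are not given in the sources used here. The deposited values are signal values, one table of estimated counts divided by a size factor (normalized counts) and one of TPM divided by a size factor, and neither holds raw reads. The value of 1 read was taken as the commonest low value of each library, and estimated reads follow from it. Per the submitters' processing notes, bcl2fastq 2.17, Trimmomatic 0.36 and STAR 2.5.2b were also used.

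Gene values are sums over transcripts. limma 3.58.1 in R 4.3.3 was fitted with an intensity trend to log2(normalized count + 0.5) of features with 5 or more normalized counts in at least 47% of libraries, over the whole table, and fold changes are on that scale. Calls required a Benjamini-Hochberg adjusted p under 0.1 and a natural-log fold change beyond 0.5 (log2 0.721), whereas the interaction was judged by its adjusted p. Usage was tested with diffSplice on transcripts with a mean of at least 5, and a call also needed a change of over 10 points in TPM share. Shares and single levels were compared by two-sided exact permutation within ages. Scripts were tested on simulated data. Values were tabulated in pandas 2.3.3 (python 3.11.15) and plotted in matplotlib 3.10.9.

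The members, lists and tests were chosen with earlier results of these data known. The genes named are Gdpd5 and its transcripts, the GDE2 lists, the 5 genes most alike and marker scores. Marker lists for the cell types the tissue could hold gave score ranges over the 12 libraries of −0.68 to 0.40 for cortical neurons, −0.26 to 0.18 for deep-layer neurons, −0.23 to 0.44 for astrocytes, −0.28 to 0.36 for oligodendrocytes, −0.33 to 0.50 for microglia, −0.45 to 0.28 for endothelial cells, −1.18 to 1.35 for choroid plexus and −1.06 to 1.34 for blood. Each library is taken as 1 animal. Of the 3 columns of 19-month Gde2KO, 2 share the first part of an identifier whose meaning is not given in the sources used here. The promoter and protein of Gdpd5 were not analysed here. The fits were repeated with another pseudocount, no filter, another scaling, TPM, no trend, a pooled spread, a replicate block, other usage tests and libraries left out.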

Additional observations from a re-analysis of the deposited data

How the results depend on the processing

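Of 445 alternatives over 34 results, 359 kept direction and side of the threshold, 39 lost a call, 2 gained one, 16 moved a count and 29 changed sign. Most of these results had not passed in the main setting, and they kept their side by staying uncalled. The gene's call was kept in 9 of 13 alternatives at 19 months and 10 of 19 over both ages. That of Gdpd5-201 over both ages was kept in 4 of 19. The TPM shares of Gdpd5-201, Gdpd5-207 and Gdpd5-208 over both ages kept theirs in 13, 10 and 8 of 14. Leaving out single libraries, the gene's log2 fold change ranged from −1.22 to −1.05 at 19 months and from −1.07 to −0.85 over both ages, and the number of Gdpd5 transcripts called over both ages from 0 to 2. The gene's call was lost with TPM (−0.82 at 19 months, −0.67 over both ages), without the intensity trend (−1.11 and −0.98), with the spread of all 12 libraries (−1.11 at 19 months) and without the shallow libraries (−0.94 over both ages). The number of transcripts called over both ages was 0 with TPM, median-of-ratios scaling, no trend, without the shallow libraries and without 4-month WT 1 and 2. Without WT 1 and 2 the interaction was 0.26 and Gdpd5-207 at 4 months −0.52. Without the shallow libraries Gdpd5-205 was 1.90 at 19 months and 0.13 over both ages, Gdpd5-207 was 0.14 and 0.11, and the 19-month usage test passed with −10.0 points. Over both ages Gdpd5-207 was 0.0044 with a pseudocount of 5 and 6.33e-05 with median-of-ratios scaling. With single libraries left out it ranged from −0.20 to 0.40 at 4 months, −0.35 to 0.38 at 19 months and −0.15 to 0.23 over both ages, and Gdpd5-205 from −1.61 to 0.68 at 19 months. In shares of counts, Gdpd5-201 differed by 3.44 points at 19 months and −4.25 over both ages, Gdpd5-208 by 5.71 at 4 months and −1.53 over both ages, and Gdpd5-205 by 0.0846 at 19 months. Without the shallow libraries the TPM share of Gdpd5-208 differed by −6.06 points over both ages, and that of Gdpd5-205 by 6.21 at 19 months and 2.36 over both. With single libraries left out Gdpd5-208 ranged from −5.59 to 0.33 points at 4 months and −10.7 to −7.49 over both ages, and Gdpd5-205 from −2.36 to 3.83 at 19 months and −1.93 to 1.17 over both. The cause of these changes was not tested.

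At 4 months same-numbered libraries did not deviate together (correlations 0.06, 0.01 and −0.05 over 19035 genes, 0 of 3 highest with their own number), so the number was not used as a pairing. With a replicate block the gene's log2 fold change was −0.85 (limma adjusted p = 0.300), that of Gdpd5-201 −1.15 (0.435), and no transcript was called. No paired analysis was possible at 19 months because the columns carry no replicate number that both genotypes share.

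Depth limits the short and retained-intron transcripts most, since 1 read in 19-month Gde2KO A equals 8.29 normalized counts. The division of reads between Gdpd5-201 and Gdpd5-208 rests on the estimation by kallisto, whose own uncertainty is not in the values used here. With 3 libraries in a group, permutation within an age cannot go below p = 0.1. Intervals cover the spread between libraries only.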
